A study of Mus musculus with 18 samples.

Results

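The transcripts of 10 regulators of G-protein signaling (RGS) were followed across the 18 DRG libraries, out of 36737 genes with counts. The members were *Rgs17*, *Rgs4*, *Rgs10*, *Rgs3*, *Rgs7*, *Rgs5*, *Rgs8*, *Rgs12*, *Rgs2* and *Rgs16*. The set was chosen by a measured value, since it was put together around *Rgs17*, which held rank 2 by p-value when PDX-treated and vehicle-treated fracture mice were compared. All values of that comparison are therefore given as a description, without a test. The same files counted 12 other RGS genes, which served for comparison.

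Bulk RNA-seq was performed on L3–L5 dorsal root ganglia (DRG), which hold the cell bodies of sensory neurons, from CD1 mice, an outbred strain. Mice of the Sham group received sham surgery, mice of the Fracture group tibial fracture with vehicle, and mice of the Fracture+PDX group tibial fracture with protectin DX (PDX), a lipid mediator made from docosahexaenoic acid. There were 6 mice in each group (3 of either sex), each sequenced as a single library, and both fracture groups were sampled 3 days after the fracture. The dose of PDX and its schedule were not stated for these mice, and neither was the day of collection in the Sham group. Libraries held 63235040 to 82824942 counts. All 12 sensory neuron markers looked at were present, with mean levels between 12.6 and 1198 FPKM in sham mice. Markers of other cells were also looked at. Of 13 placenta markers, 3 were called lower in Fracture and 10 in Fracture+PDX than in Sham mice (edgeR), and of 12 skeletal muscle markers 0 were called in either comparison by edgeR, with 2 and 0 at an unadjusted p under 0.05. The summed placenta markers ran from 212 to 682 CPM in Sham, 34.9 to 324 CPM in Fracture and 32.5 to 167 CPM in Fracture+PDX mice. Both sexes carried them in Sham mice, with 332 to 479 CPM in males and 212 to 682 CPM in females. The summed skeletal muscle markers ran from 38.8 to 781 CPM in Sham, 69.4 to 1562 CPM in Fracture and 20.5 to 736 CPM in Fracture+PDX mice. Their part in the results below was not tested.

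Receptors coupled to G proteins act by loading the Gα subunit with GTP, and RGS proteins end the signal by speeding up the hydrolysis of that GTP on Gα. In sensory neurons such signals come from opioid, cannabinoid, adrenergic and prostanoid receptors, and the amount of RGS protein helps set how long they last. RGS proteins fall into subfamilies by sequence. The RZ proteins include RGS17, which acts on Gαz and Gαi/o. The R4 proteins (RGS2, RGS3, RGS4, RGS5, RGS8 and RGS16 among the members) are mostly small and act on Gαi/o or Gαq. The R7 protein RGS7 works as a dimer with Gβ5 and is held at the membrane by R7BP. The R12 proteins among the members are RGS10, which is short, and RGS12, which carries several further domains.

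The members lie on 5 chromosomes, with 6 of the 10 on chromosome 1. *Rgs17* (ENSMUSG00000019775) lies on chr10:5825663-5922400 on the minus strand (mm10, which is GRCm38). *Rgs5* and *Rgs4* are neighbours on chromosome 1 with 45663 bases between them, and *Rgs8* and *Rgs16* are neighbours with 40025 bases between them. Promoter windows from RefSeq (GRCm38.p6) were available for 10 of the 10 members, as 14 windows because some genes have several starts. Shown are the 250 bases before the start of *Rgs17*, the gene behind the choice of the set, of *Rgs4*, the most abundant member, and of *Rgs16*, the member with the largest difference from sham. They are written 5′ to 3′ on the strand of the gene, from chr10:5922401-5922650 (minus strand), chr1:169747643-169747892 (minus strand) and chr1:153740103-153740352 (plus strand). Capitals mark GC boxes in *Rgs17* and *Rgs16* and the core (TGACG) of the cAMP response element (CRE) in *Rgs4*.
Rgs17: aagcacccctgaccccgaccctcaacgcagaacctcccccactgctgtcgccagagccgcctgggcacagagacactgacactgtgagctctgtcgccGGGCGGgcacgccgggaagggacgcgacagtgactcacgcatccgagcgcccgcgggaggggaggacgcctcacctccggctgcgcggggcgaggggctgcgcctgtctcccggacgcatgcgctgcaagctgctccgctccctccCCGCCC
Rgs4: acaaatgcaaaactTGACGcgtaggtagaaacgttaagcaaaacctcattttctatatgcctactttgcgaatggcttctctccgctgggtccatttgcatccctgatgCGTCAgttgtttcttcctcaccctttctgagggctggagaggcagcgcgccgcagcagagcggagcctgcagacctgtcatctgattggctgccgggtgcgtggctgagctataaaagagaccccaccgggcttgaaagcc
Rgs16: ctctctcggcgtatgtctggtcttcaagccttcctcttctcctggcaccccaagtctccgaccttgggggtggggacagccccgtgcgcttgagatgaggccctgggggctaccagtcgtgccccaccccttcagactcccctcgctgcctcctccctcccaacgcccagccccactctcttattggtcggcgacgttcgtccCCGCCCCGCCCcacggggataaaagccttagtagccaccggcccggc
The windows differed in base composition. The *Rgs17* window held 72.4% G and C, with 2 GC boxes (GGGCGG on either strand) and no TATAAA. The *Rgs4* window held 53.6% G and C, with 2 CRE cores (TGACG on either strand), 1 TATAAA and no GC box. The *Rgs16* window held 66.4% G and C and 2 GC boxes that share a base. The median over all 32851 RefSeq windows was 52.4% G and C. GC boxes stood in 7 of the 14 windows of the members (6 genes), against 32.7% of all windows, and CRE cores in 4 of the 14 (4 genes), against 17.8% of all windows. TATAAA stood in 3 of the 14 windows (*Rgs3* and *Rgs4*), against 12.4% of all windows. The E box CACGTG, which overlaps none of the other motifs, stood in 1 of the 14 windows (*Rgs7*), against 6.0% of all windows. A match is a run of letters and was not tested as a binding site.

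The 10 members differed widely in abundance. Per transcript length, *Rgs4*, an R4 protein of neurons, was the highest in sham DRG at 256 ± 25.6 FPKM (SD, n = 6), 4.6-fold above *Rgs10* at 55.7 ± 7.23 FPKM. *Rgs3* followed at 15.1 ± 0.872 FPKM. The ranges of these 3 genes over the 6 sham mice did not overlap one another. *Rgs7* (9.65 ± 0.659 FPKM) and *Rgs5* (9.42 ± 1.05 FPKM) overlapped in range and lay above *Rgs8* (5.54 ± 0.67 FPKM). From there on each gene overlapped with its neighbour in the order, which ran through *Rgs17* (3.77 ± 0.685 FPKM), *Rgs12* (3.09 ± 0.268 FPKM) and *Rgs2* (2.95 ± 0.363 FPKM) to *Rgs16* (1.82 ± 0.362 FPKM). *Rgs4* alone made up 65.0% to 69.8% of the summed FPKM of the 22 RGS genes across the 18 libraries. Of the other RGS genes, *Rgs11* (7.65 FPKM), *Rgs19* (5.02 FPKM) and *Rgs6* (3.47 FPKM) reached levels within the range of the members in sham DRG, while *Rgs13* and *Rgs21* were listed at or near 0.

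**Figure D1:**
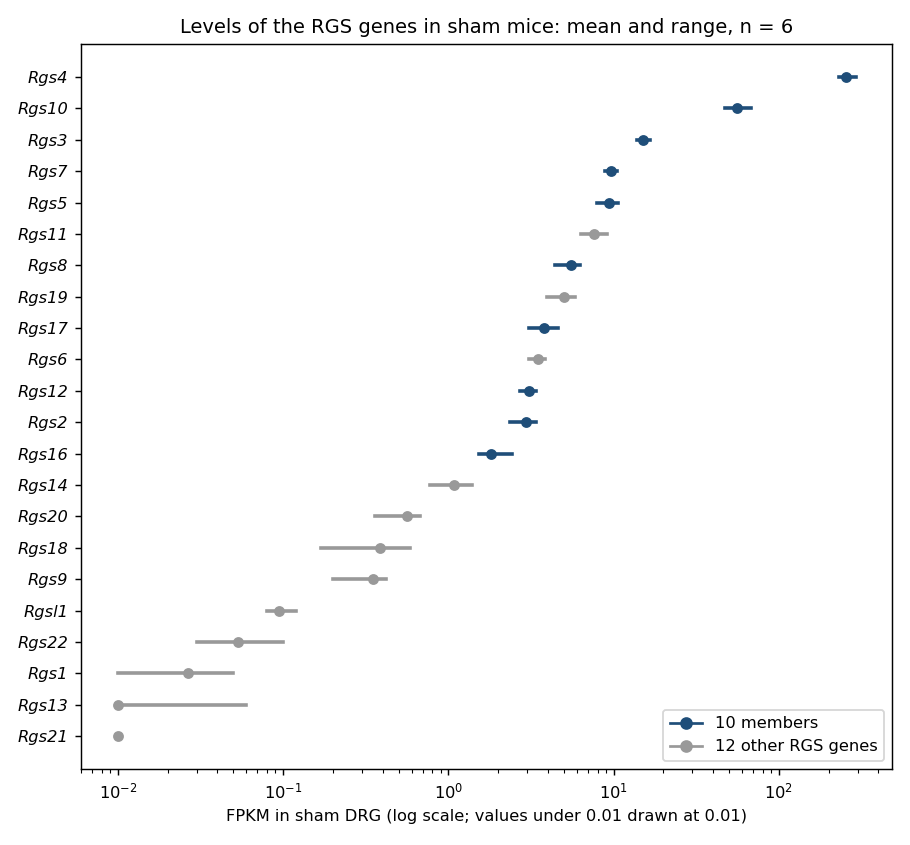
Levels of the 22 RGS genes in sham DRG in FPKM on a log axis, with a dot for the mean and a line for the range over 6 mice; blue marks the 10 members and grey the 12 other RGS genes. *Rgs4* stands apart at 256 FPKM, and the members span down to *Rgs16* at 1.82 FPKM.

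The study's main comparison set PDX-treated against vehicle-treated fracture mice. *Rgs17* was higher with PDX, while the other 9 members differed by −0.06 to 0.12 on the log2 scale. In CPM (counts scaled to a common library size by edgeR's TMM method), *Rgs17* had a lowest value of 29.0, a median of 34.7 and a highest value of 39.9 in Fracture mice. In Fracture+PDX mice the lowest value was 38.6, the median 41.9 and the highest 47.8. Of the 6 Fracture+PDX mice, 4 lay above every Fracture mouse, and the groups overlapped in the others. The means were 34.6 ± 4.77 CPM and 42.6 ± 3.72 CPM (SD, n = 6 each), a difference of 0.32 on the log2 scale with an SE of 0.061, or 24.6% more. Sham mice overlapped with both groups, with a lowest value of 28.4, a median of 32.4 and a highest value of 42.5 CPM. The sexes stood at different levels within the Fracture group, where females had 30.6 ± 2.33 CPM and males 38.5 ± 2.11 CPM (SD, n = 3 each). With PDX, females had 40.8 ± 2.18 CPM and males 44.4 ± 4.47 CPM. The lowest PDX-treated female (38.6 CPM) lay above the highest vehicle-treated female (33.3 CPM), and in males the lowest PDX-treated value (39.4 CPM) lay below the highest vehicle-treated value (39.9 CPM).

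*Rgs17* held rank 2 by p-value among the 20562 genes tested in this comparison. Rank 1 was *Gm13375*, with a log2 fold change of 0.52, and ranks 3 and 4 were *Rassf4* (−0.31) and *Arid5a* (0.25). No gene of the genome passed the adjusted threshold of 0.05 with edgeR (0%), and 5.41% of genes had an unadjusted p-value under 0.05. Among the R4 members the log2 differences were −0.06 for *Rgs3*, −0.01 for *Rgs4*, −0.02 for *Rgs5*, 0.003 for *Rgs8*, 0.05 for *Rgs2* and 0.12 for *Rgs16*. The last ran from 0.02 without female 3 of the Fracture group to 0.24 without male 1 of the Fracture+PDX group. *Rgs7* stood at −0.05, *Rgs10* at 0.04 and *Rgs12* at 0.001. The 95% confidence interval of *Rgs4*, from −0.11 to 0.09, was among the narrower ones, and that of *Rgs16*, from −0.25 to 0.49, the widest of the 10. The summed sensory neuron markers overlapped between these groups (11246 to 12011 CPM in Fracture and 10754 to 12459 CPM in Fracture+PDX mice). The 10 neutrophil markers were all higher with PDX by fold change. All 10 stood at an unadjusted p under 0.05, beside 5.41% of genes, and edgeR called none. Their sum ran from 94.1 to 197 CPM in Fracture and from 83.5 to 486 CPM in Fracture+PDX mice. All 8 platelet markers, with 4 at an unadjusted p under 0.05, and all 7 red blood cell markers, with 0, were also higher by fold change, and none was called by edgeR. The platelet sum ran from 78.5 to 92.4 CPM in Fracture and from 83.7 to 129 CPM in Fracture+PDX mice, and the red blood cell sum from 982 to 1362 and from 503.6 to 2896 CPM. All 12 skeletal muscle markers and all 13 placenta markers were lower with PDX by fold change. Their median log2 fold changes were −1.89 and −0.57. All 10 axonal injury genes were higher, with a median of 0.32. At an unadjusted p under 0.05 stood 0, 0 and 1 of these, and edgeR called none. The part of these lists in the *Rgs17* difference was not tested. Across the 18 libraries the deviations of *Rgs17* from its group means had r = −0.18 with those of the neutrophil sum, −0.33 with the platelet sum and −0.41 with the red blood cell sum. They had −0.40 with the pericyte and smooth muscle sum, 0.28 with the skeletal muscle sum and 0.24 with the neuron sum. With the axonal injury sum they had 0.11 and with the placenta sum −0.04. These values are a description over libraries that share group means and scaling.

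**Figure D2:**
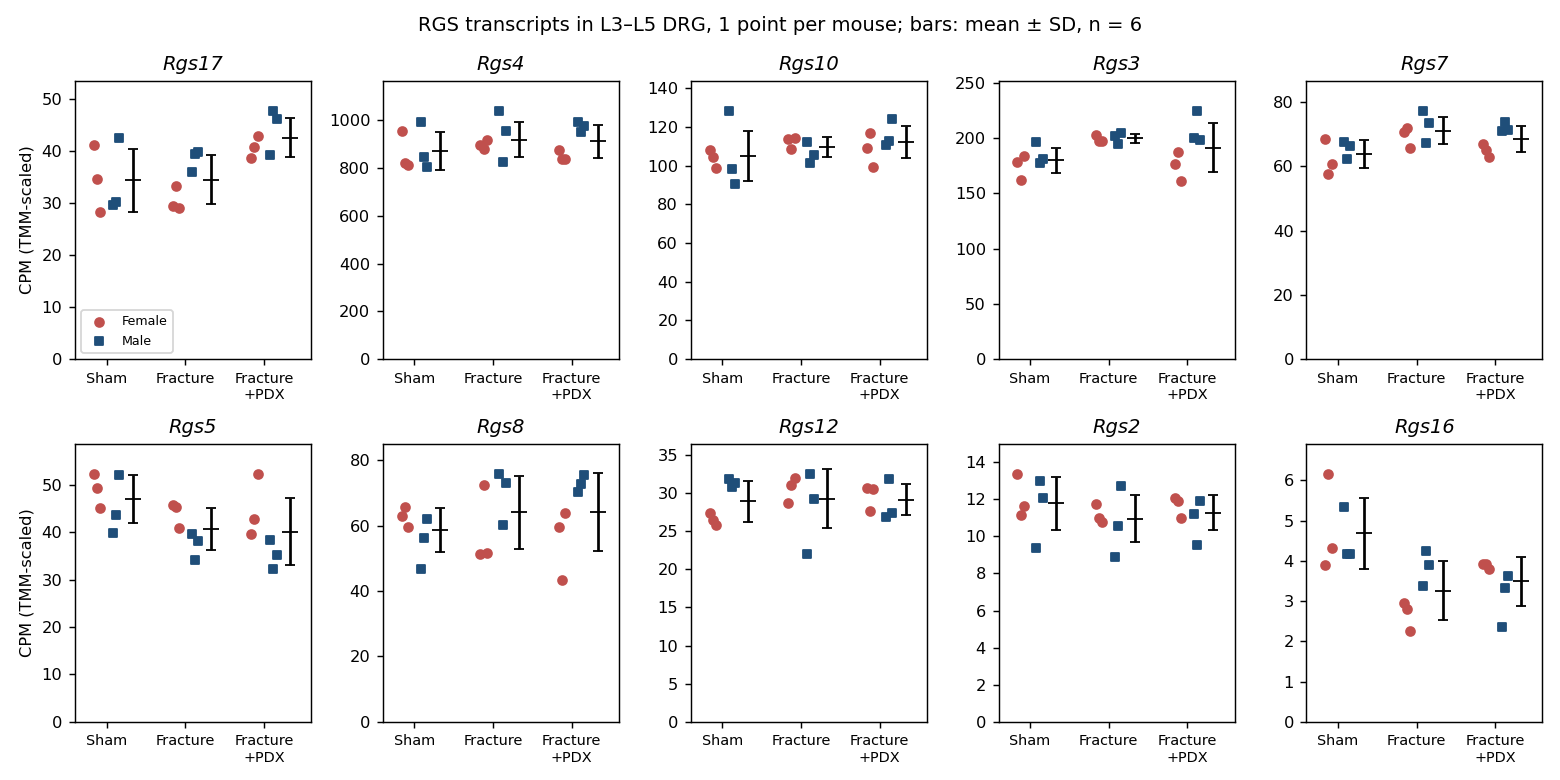
CPM of each member in every mouse, by group, with females as red circles, males as blue squares and bars for the mean ± SD of 6 mice; each panel starts at 0. In the *Rgs17* panel the Fracture+PDX mice lie between 38.6 and 47.8 CPM and the Fracture mice between 29.0 and 39.9 CPM.

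Fracture mice with vehicle were then set against mice with sham surgery. *Rgs3*, an R4 protein that acts on Gαi/o and Gαq, rose, and it was the only member to pass the test. In Sham mice *Rgs3* had a lowest value of 162, a median of 179.7 and a highest value of 196 CPM. In Fracture mice the lowest value was 194, the median 199.7 and the highest 205 CPM. Of the 6 Fracture mice, 5 lay above every Sham mouse, and the sham values were spread more widely. The means were 179.8 ± 11.2 and 199.8 ± 3.92 CPM (SD, n = 6 each), a log2 fold change of 0.15 with an SE of 0.038 (edgeR quasi-likelihood test, adjusted p = 0.0485), or 11.1% more. The members called were 1 of 10 at the adjusted threshold, beside 2.92% of the 20659 genes tested, and 4 of 10 at an unadjusted p under 0.05, beside 18.5% of genes. No member had groups that did not overlap, beside 2.57% of all genes. The call of *Rgs3* was lost when any 1 of 10 of the 12 libraries was left out and held without male 1 or female 3 of the Sham group, with adjusted p from 0.0227 to 0.113 (edgeR). It was also lost without the filter on low counts (0.0561), with all 18 libraries in one fit (0.102), with a block for replicate number (0.0825) and with limma on FPKM (0.0727 to 0.141). DESeq2 kept it (0.00775), as did edgeR with another library scaling (RLE) and edgeR without sex as a covariate. The comparison shares the Fracture libraries with the one that singled out *Rgs17*.

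The difference in *Rgs3* went along with differences in several marker lists, neuronal transcripts among them. The summed sensory neuron markers ran from 10023 to 10765 CPM in Sham and from 11246 to 12011 CPM in Fracture mice, without overlap, and all 12 markers were higher by fold change, 4 of them called. The 10 axonal injury genes were all higher as well, 5 of them called. Lower by fold change were 11 of 11 macrophage markers (2 called), 7 of 7 fibroblast markers (1 called) and 10 of 10 neutrophil markers (1 called, edgeR). Their part in the *Rgs3* difference was not tested. In bulk tissue, a larger share of neurons and more transcript per neuron cannot be told apart. Expressed per 1000 CPM of the neuron markers, *Rgs3* stood at 17.1 ± 0.843 CPM in Sham and 17.2 ± 0.439 CPM in Fracture mice, a log2 difference of 0.01. *Rgs7* behaved alike, with 6.09 ± 0.32 CPM in Sham and 6.11 ± 0.283 CPM in Fracture mice on the same scale. This ratio was chosen after the data were seen and was not tested.

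**Figure D3:**
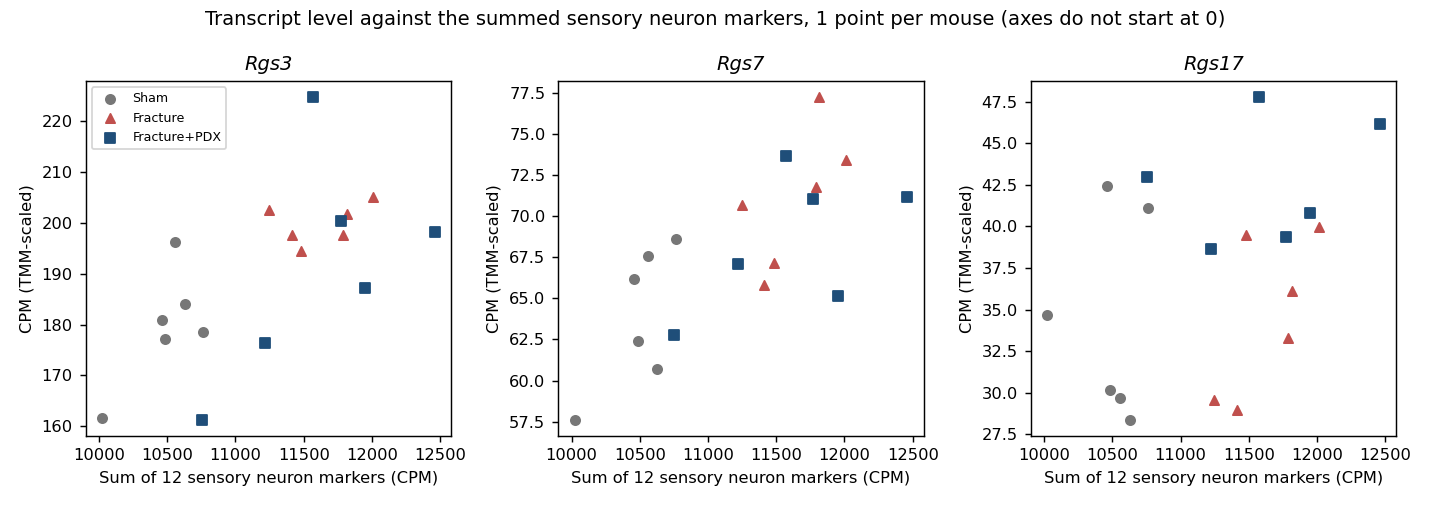
CPM of *Rgs3*, *Rgs7* and *Rgs17* in each mouse against the summed CPM of 12 sensory neuron markers; grey circles are Sham, red triangles Fracture and blue squares Fracture+PDX mice, and no axis starts at 0. The Sham mice lie to the left, between 10023 and 10765 CPM of the markers, and the Fracture mice to the right, from 11246 to 12011 CPM.

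The other members with an unadjusted p under 0.05 after fracture were *Rgs16*, *Rgs5* and *Rgs7*, and none of these passed the adjusted threshold. *Rgs16*, an R4 gene known to respond quickly to stimuli, had a lowest value of 3.89, a median of 4.25 and a highest value of 6.17 CPM in Sham mice. In Fracture mice the lowest value was 2.26, the median 3.17 and the highest 4.24 CPM. Of the 6 Fracture mice, 4 lay below every Sham mouse. The log2 fold change was −0.55 with an SE of 0.16 (edgeR, adjusted p = 0.0814), the largest in size among the members. With limma on log2(FPKM + 1), a scale that understates the change of low genes, it was −0.32. *Rgs5*, known as a marker of pericytes, had a median of 47.2 CPM in Sham (39.8 to 52.4) and 40.3 CPM in Fracture mice (34.1 to 45.7), with 3 Fracture mice below every Sham mouse. Its log2 fold change was −0.22 with an SE of 0.065 (edgeR, adjusted p = 0.0931). The summed pericyte and smooth muscle markers ran from 260 to 358 CPM in Sham and from 256 to 330 CPM in Fracture mice, and of these 11 markers 7 were lower by fold change and 0 were called by edgeR, with 0 at an unadjusted p under 0.05. The summed endothelial markers ran from 174 to 216 CPM in Sham and from 154 to 177 CPM in Fracture mice, with 2 of 9 called lower. The part of these cells in the *Rgs5* difference was not tested.

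*Rgs7*, the R7 protein of neurons, had a median of 64.3 CPM in Sham (57.6 to 68.6) and 71.2 CPM in Fracture mice (65.8 to 77.3), with 4 Fracture mice above every Sham mouse. Its log2 fold change was 0.15 with an SE of 0.048 (edgeR, adjusted p = 0.103). DESeq2 called *Rgs5* (adjusted p = 0.034), *Rgs7* (adjusted p = 0.0459) and *Rgs16* (adjusted p = 0.0195), and it called 1511 genes in all. *Rgs17* had near-equal means in Sham and Fracture mice (34.4 ± 6.11 and 34.6 ± 4.77 CPM), with a 95% confidence interval of the log2 difference from −0.25 to 0.25. Per summed neuron markers the difference was −0.14. The abundant *Rgs4* stood at 871 ± 81.5 CPM in Sham and 919 ± 73.1 CPM in Fracture mice, a log2 difference of 0.08 with an interval from −0.07 to 0.22. The differences of *Rgs2* (−0.10), *Rgs8* (0.12), *Rgs10* (0.06) and *Rgs12* (0.02) had intervals that included 0. The median over the 10 members was 0.04, against 0.002 over all genes tested.

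**Figure D4:**
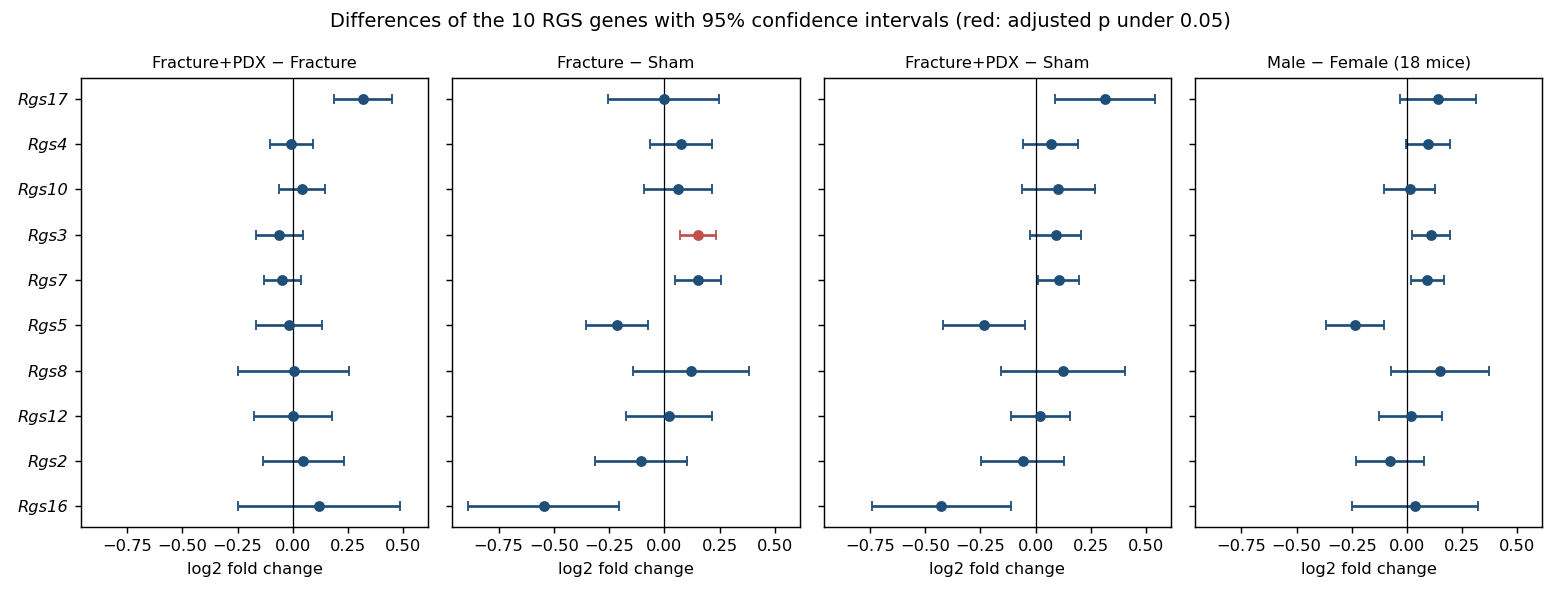
Log2 fold changes of the 10 members with 95% confidence intervals in 4 comparisons, given as the group named first minus the other; red marks an adjusted p under 0.05. Only *Rgs3* in Fracture minus Sham is red, at 0.15, and *Rgs17* lies at 0.32 in Fracture+PDX minus Fracture, a panel given as a description.

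PDX-treated fracture mice were also set against sham, a comparison that shares the PDX libraries with the one that singled out *Rgs17*. No member passed the adjusted threshold with edgeR, beside 4.5% of the 20574 genes tested, and 4 of 10 had an unadjusted p under 0.05 with edgeR, beside 18% of genes. *Rgs17* had a log2 fold change of 0.31 with an SE of 0.10, with 3 of 6 Fracture+PDX mice above every Sham mouse, and is given as a description because these PDX-treated mice chose it. DESeq2 put 1 member, *Rgs17*, under the threshold (adjusted p = 0.0358), which for the same reason is no independent test. By DESeq2 1620 of the 20574 genes were called in this comparison. *Rgs16* stood at 3.49 ± 0.6 CPM, against 4.68 ± 0.886 CPM in Sham mice, a log2 fold change of −0.43 (edgeR, adjusted p = 0.128) that was −0.26 with limma on log2(FPKM + 1). *Rgs5* stood at 40.1 ± 7.04 CPM, against 47.1 ± 5.03 CPM, a log2 fold change of −0.23 (edgeR, adjusted p = 0.165). *Rgs7* stood at 68.5 ± 4.17 CPM, against 63.8 ± 4.31 CPM, a log2 fold change of 0.11 (edgeR, adjusted p = 0.211). Side by side, *Rgs16* had −0.55 after fracture with vehicle and −0.43 after fracture with PDX, *Rgs5* −0.22 and −0.23, and *Rgs7* 0.15 and 0.11, both measured against the same Sham mice. *Rgs3* had 0.15 and 0.09 in the same order. In PDX-treated mice *Rgs3* was widely spread, from 161 to 225 CPM, with females at 161 to 187 CPM and males at 198 to 225 CPM. Within the sexes the spread was also wider than in Fracture mice. The SD was 13.0 CPM in females and 14.7 CPM in males, against 2.81 and 5.44 CPM (n = 3 each). Without PDX-treated female 3 *Rgs5* was called at −0.30 (edgeR, adjusted p = 0.0352), and without Sham female 1 *Rgs7* was called at 0.14 (edgeR, adjusted p = 0.0477). No member had groups that did not overlap, beside 2.86% of genes, and for PDX-treated against vehicle-treated mice likewise none, beside 0.267%.

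Males and females were compared over all 18 mice with group as a covariate, which does not rest on the comparison that chose *Rgs17*. No member was called by edgeR, beside 0.297% of the 20527 genes tested, and 3 of 10 had an unadjusted p under 0.05, beside 10.4%. *Rgs5* was the one with the smallest p. Its mean was 46.0 CPM in females and 39.3 CPM in males, a log2 difference of −0.24 with an SE of 0.063 (edgeR, adjusted p = 0.126). The difference had the same sign in each group, with females at 48.9, 44.0 and 45.0 CPM and males at 45.2, 37.3 and 35.3 CPM in Sham, Fracture and Fracture+PDX mice. DESeq2 called it (adjusted p = 0.0245), beside 330 of the 20527 genes. *Rgs3* (0.11) and *Rgs7* (0.09) were the other members with an unadjusted p under 0.05, both higher in males by fold change. The abundant *Rgs4* had a log2 difference of 0.09 with a 95% confidence interval from −0.01 to 0.19.

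Whether the sexes differed in their response was asked with an interaction term. With PDX, 2 members had an unadjusted p under 0.05, beside 4.14% of genes, and edgeR called none. These values come from the libraries that chose *Rgs17* and are a description. *Rgs16* went from 2.67 ± 0.365 to 3.88 ± 0.0633 CPM in females and from 3.84 ± 0.434 to 3.10 ± 0.664 CPM in males (SD, n = 3 each). The interaction was −0.85 on the log2 scale, male minus female, with an SE of 0.26. *Rgs3* went from 199 ± 2.81 to 175 ± 13 CPM in females and from 200.4 ± 5.44 to 208 ± 14.7 CPM in males, an interaction of 0.23 with an SE of 0.077. For *Rgs17* the interaction was −0.22 with an interval from −0.46 to 0.02, and −0.14 without male 1 of the Fracture+PDX group. With fracture, 2 members had an unadjusted p under 0.05, beside 7.2% of genes. *Rgs12*, the large R12 protein, stood at 26.6 ± 0.813 CPM in sham females and 31.3 ± 0.564 CPM in sham males, and at 30.6 ± 1.7 and 28.0 ± 5.38 CPM after fracture. Its interaction was −0.36 with an SE of 0.15 (edgeR, adjusted p = 0.652), and −0.22 with an SE of 0.092 without male 1 of the Fracture group (edgeR, adjusted p = 0.809), a mouse left out after its value was seen. *Rgs8* had an interaction of 0.45 with an SE of 0.20 (edgeR, adjusted p = 0.687).

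Members also varied among themselves from mouse to mouse. The coefficient of variation over the 18 mice ran from 7.39% for *Rgs7* to 25% for *Rgs16*, the member with the fewest counts (175 to 497 per library). Correlations of deviations from the group means over 18 libraries, which share scaling and tissue composition, are given as a description. Among the 45 pairs of members they ran from −0.70 (*Rgs3* with *Rgs5*) to 0.77 (*Rgs4* with *Rgs7*), with a median of −0.03. *Rgs3* and *Rgs7* had 0.71. With the summed neuron markers *Rgs3* had 0.60, *Rgs7* 0.59 and *Rgs4* 0.48, and *Rgs5* had −0.44. Some other lists gave values of larger size, but none did for *Rgs3*. With the summed glucocorticoid-responsive genes *Rgs7* had −0.75 and *Rgs4* −0.61, while *Rgs3* had −0.54, smaller in size than with the neuron markers. *Rgs4* had −0.66 with the fibroblast markers and 0.60 with the platelet markers. *Rgs5* had 0.53 with the summed endothelial markers and 0.09 with the summed pericyte and smooth muscle markers. Over 15794 genes searched, the gene most like *Rgs17* was *Pip4p2* (r = 0.87), followed by *Nipa1* (0.84) and *Nynrin* (0.82). For *Rgs3* these were *Gm5763* (0.89), *Rtn4rl1* (0.88) and *Lpar3* (0.86), and for *Rgs4* *Sdcbp* (0.89), *Fgf12* (0.85) and *Prkcd* (0.85). *Rgs7* came with *Prkar2b*, *Prokr1* and *Chml*, *Rgs8* with *Hivep1*, *Zdhhc21* and *Dpp8*, and *Rgs10* with *Lxn*, *Mrpl52* and *Tppp3*, all at r from 0.86 to 0.92. The remaining members had their most similar genes at r from 0.77 to 0.87. These were *Mn1*, *Wnt11* and *Fancb* for *Rgs5*, *Pkdrej*, *Sec22a* and *Ercc2* for *Rgs2*, *Epb41l4b*, *Adra2a* and *Stx12* for *Rgs12*, and *Scpep1*, *Ptpn5* and *Socs3* for *Rgs16*.

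The other genes of the pathway are set against the same background after fracture, 2.92% of genes called and 18.5% at an unadjusted p under 0.05. Of the 12 other RGS genes, 10 were tested after fracture and 0 were called by edgeR, with 1 (*Rgs1*, at 0.215 CPM in Sham mice) at an unadjusted p under 0.05. *Rgs20*, the RZ relative of *Rgs17*, stood at 2.63 CPM in Sham, 3.02 CPM in Fracture and 3.72 CPM in Fracture+PDX mice. Its log2 fold change in Fracture+PDX against Sham mice was 0.49 (edgeR, adjusted p = 0.18). With PDX against vehicle, given as a description, *Rgs20* had 0.30 with an SE of 0.17, with 4 of 6 Fracture+PDX mice above and 1 below every Fracture mouse, and *Rgs19*, the third RZ gene, had 0.07. On the same terms *Rgs11*, with the smallest p of the other RGS genes, had −0.11 with an SE of 0.046 and 4 of 6 below every Fracture mouse, and *Rgs18* had 0.75 with an SE of 0.35 at 0.575 CPM in Fracture mice, with 4 of 6 above and 1 below. Of the 5 partners of R7 proteins, *Rgs7bp* stood at 57.3 ± 4.53 FPKM and *Gnb5*, which encodes Gβ5, at 20.9 ± 0.813 FPKM in sham DRG, *Gpr158* at 16.6 ± 1.92 FPKM, and *Gpr179* and *Rgs9bp* at 0.212 and 0.112 FPKM. After fracture *Gnb5* had a log2 fold change of 0.10 (edgeR, adjusted p = 0.125) and *Gpr158*, an orphan receptor that binds RGS7, 0.15 (adjusted p = 0.192). None of the 5 partners was called by edgeR, beside 2.92% of genes, with 2 at an unadjusted p under 0.05, beside 18.5%.

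Of 14 tested Gα genes, 0 were called after fracture by edgeR, beside 2.92% of genes, with 5 higher and 1 lower at an unadjusted p under 0.05, beside 18.5%. The closest was *Gnaq*, the Gαq gene, at 0.12 (adjusted p = 0.0528), and *Gnaz*, the Gαz substrate of RGS17, had 0.13 (adjusted p = 0.102). Of 15 tested Gβ and Gγ genes 0 were called by edgeR, with 4 at an unadjusted p under 0.05, beside the same 2.92% and 18.5%. Among 14 tested genes with a related domain, *Arhgef11*, whose protein is driven by Gα12/13, rose after fracture from 202 to 227 CPM (log2 fold change 0.16, edgeR, adjusted p = 0.0353) and was higher in males (227 against 200.4 CPM, log2 difference 0.18, edgeR, adjusted p = 0.0487). It was the only gene of this list called in either comparison, beside 2.92% of genes after fracture and 0.297% between the sexes. With 1 library left out, its adjusted p ran from 0.0331 to 0.0864 after fracture and from 0.0170 to 0.118 between the sexes (edgeR). With these and the other alternatives counted together, it was called in 8 of 21 after fracture and in 6 of 24 between the sexes. Among 16 tested effectors, the adenylyl cyclase *Adcy7* fell in PDX-treated mice against sham, from 22.2 to 16.6 CPM (log2 fold change −0.41, edgeR, adjusted p = 0.0168), with all 6 PDX-treated mice below every Sham mouse. It was the only effector called in that comparison, beside 4.5% of the 20574 genes tested. In vehicle-treated Fracture mice it stood at 18.1 CPM, a log2 difference of −0.30 from sham (edgeR, adjusted p = 0.147), and PDX against vehicle gave −0.12 with a 95% confidence interval from −0.30 to 0.07. Against sham after PDX, its adjusted p stayed between 0.00863 and 0.0478 when 1 library was left out (edgeR), and the call was lost with limma on log2(FPKM + 1) without a filter (adjusted p = 0.0785, log2 fold change −0.31). In the same comparison the summed endothelial markers ran from 174 to 216 CPM in Sham and from 149 to 173 CPM in Fracture+PDX mice. Of these 9 markers, 8 were lower by fold change and 2 were called lower. Of 11 macrophage markers 6 were lower and 5 higher, with 1 called lower. All 12 sensory neuron markers were higher, 2 of them called. The part of these cells in the *Adcy7* difference was not tested.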

How the data were processed

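RNA-seq was performed on L3–L5 DRG of 18 mice, using paired-end, stranded mRNA libraries. The authors deposited gene counts without normalization and FPKM values, which are scaled by transcript length and library size. The submitters' processing notes name cutadapt 1.10, FastQC, HISAT2, StringTie and mm10. The role of each tool is not given in the sources used here. The sham columns are headed Con, a word the labels do not use, and were read as the Sham mice of the same sex and number. The 6 mice of a group are separate animals, and no pair of libraries agreed within sampling noise. Counting error is small beside the spread between mice at this depth.

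Genes were kept with filterByExpr (minimum count 10, minimum total 15), scaled by TMM and fitted with the robust quasi-likelihood model of edgeR 4.0.16 (R 4.3.3), with sex as a covariate and 12 libraries per comparison. Males and females were compared over 18 libraries with group as a covariate. P-values were adjusted by Benjamini-Hochberg over all genes tested, and a gene was called at an adjusted p under 0.05. The scripts were tested on simulated data. Correlations used log2 CPM with a prior count of 2, and genes searched for likeness had a mean CPM of 1 or more. Alternatives were DESeq2 1.42.0, other scalings and filters, other covariates, limma 3.58.1 on log2(FPKM + 1) and log2(FPKM + 0.1), and leaving out each library.

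The members and gene lists were chosen with earlier results of these data known. The members are described in full. Other genes of the RGS and G protein lists could be named where called or among the 3 smallest p-values of their list, and the 3 most similar genes are named per member. *Rgs18*, *Rgs19*, *Gpr179*, *Rgs9bp* and the RGS genes named for their levels were added after their values were seen. *Arhgef11* and *Adcy7* were named because they were called. Gene coordinates matched GENCODE M21 for 8 of 10 members. Overlapping genes had at most 26.8 counts on average.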

Additional observations from a re-analysis of the deposited data

Results flagged for a closer look

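*Rgs12* in the Fracture group had 1 library that lay apart. Its lowest value, in male 1, was 22.1 CPM, and the nearest of the other 5 Fracture mice had 28.7 CPM, a gap of 0.635 of the group's range, above Dixon's critical value for 6 samples. Of the 30 sets of 6 mice looked at (10 members in 3 groups), 1 was marked in this way, and chance marks about 1 in 20.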

How the results depend on the processing

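DESeq2 called 15 genes between PDX and vehicle, 1511 between fracture and sham, 1620 between PDX and sham and 330 between the sexes, with 8 and 65 for the interactions of sex with PDX and with fracture. For fracture against sham the replicate block gave 118 calls, limma 401 and 375 with FPKM + 1 and FPKM + 0.1, and 121 without a filter. For PDX against sham the block gave 486 and limma without a filter 347, and between the sexes the latter gave 24. With 1 library left out, calls ran from 0 to 1, 213 to 710, 498 to 1008, 25 to 79, 1 to 2 and 0 to 1 in that order of comparisons. The cause was not tested. Mice of 1 number were not described as paired, and their deviations had r from −0.14 to 0.26, so the replicate block tests only a shared number. *Rgs3* after fracture kept its direction everywhere, and lost its call without a filter (adjusted p = 0.0561), with all 18 libraries in one fit (0.102), with limma (0.0727 to 0.141) and with the block (0.0825). *Rgs17* against sham after fracture lay around 0 and changed sign without the sex covariate (0.00624), with the block (0.0125) and with limma (0.000712 and 0.00232). *Rgs10* (−0.00869 and −0.00892) and *Rgs12* (−0.00204 and −0.00397) changed sign between the sexes with limma. With 1 library left out, sign changes came in *Rgs17* after fracture (−0.0651 to 0.0745), *Rgs12* after fracture (−0.0160 to 0.104), with PDX against sham (−0.00525 to 0.0580) and between the sexes (−0.00848 to 0.0695), and in *Rgs10* (−0.0371 to 0.0394) and *Rgs16* (−0.0297 to 0.112) between the sexes. With PDX against vehicle, *Rgs2* (−0.0041 to 0.109), *Rgs4* (−0.05 to 0.0207), *Rgs5* (−0.0801 to 0.0177), *Rgs8* (−0.0461 to 0.0920) and *Rgs12* (−0.0678 to 0.0531) changed sign, and *Rgs17* lay between 0.29 and 0.36. *Rgs16* moved from −0.55 to −0.323 after fracture and from −0.43 to −0.264 with PDX against sham with limma on log2(FPKM + 1). *Arhgef11* lost its call after fracture with no sex covariate (0.116), with the block (0.0847), with all 18 libraries (0.0551) and with limma (0.0505 to 0.102), and between the sexes with limma (0.0967 to 0.191), and *Adcy7* with limma without a filter (0.0785). Per summed neuron markers, chosen after the data were seen, *Rgs4* (−0.07), *Rgs8* (−0.04), *Rgs10* (−0.08) and *Rgs12* (−0.14) turned negative after fracture, and *Rgs17* (−0.14), *Rgs2* (−0.25), *Rgs5* (−0.36) and *Rgs16* (−0.68) lay further below 0. On the same scale *Rgs3* and *Rgs7* each moved from 0.15 to 0.0055. At 175 to 497 counts per library, *Rgs16* is the member whose value depth limits most.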
